A study of Arabidopsis thaliana with 12 samples.

Results

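SAUR61 to SAUR68 are 8 neighbouring Arabidopsis thaliana genes of the SMALL AUXIN UP RNA family, taken here as the rows of the deposited count table with the locus codes AT1G29420 (SAUR61), AT1G29430 (SAUR62), AT1G29440 (SAUR63), AT1G29450 (SAUR64), AT1G29460 (SAUR65), AT1G29490 (SAUR68), AT1G29500 (SAUR66) and AT1G29510 (SAUR67). All 8 were found among the 27588 genes of the table, and all 8 passed the filter on low counts that left 21235 genes for testing. The RefSeq annotation gives SAUR68 as the symbol of AT1G29510 and also as another name of AT1G29490, so the locus code decides which gene is meant. Levels were measured by RNA sequencing in whole seedlings of a cfh1 mutant (the cfh1-1 allele, per the series design), a CFH1 decoy line, a PIF3 over-expression line and the wild type Col-0, all labelled as Columbia 0, with 3 libraries each. Seedlings first had 7 days with 12 h of light a day (12 h of dark) and then constant red light, and were collected on day 12 at zeitgeber time 1, that is 1 h after the dawn of the earlier cycles. The sources used here do not give the promoters that drive the decoy and PIF3 transgenes, the number of independent lines, or whether libraries of a genotype came from separate plates. The p-values therefore measure the spread between libraries, which may be technical.

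SAUR genes encode small proteins that plants make quickly and briefly after an auxin pulse. Several SAUR proteins bind and inhibit PP2C.D phosphatases, which otherwise switch off the proton pumps of the plasma membrane, so that SAUR activity acidifies the cell wall and favours cell expansion. SAUR63 and its relatives in this cluster promote elongation of hypocotyls and stamen filaments when over-produced, and SAUR62 is also known, with SAUR75, from pollen tube growth. F-box proteins such as CFH1 pick targets for degradation, and a decoy is generally a form that lacks the F-box. The title of the series ties CFH1 to the clock and to red-light development. PIF3, a transcription factor of the basic helix-loop-helix family, interacts with phytochromes and binds short promoter motifs, among them the E-box CACATG.

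The 8 genes span 21863 bp at chr1:10301377-10323239 of the TAIR10.1 assembly. The 5 genes SAUR61 to SAUR65 lie on the minus strand and the 3 genes SAUR68, SAUR66 and SAUR67 on the plus strand, with a gap of 11485 bp between SAUR65 and SAUR68. Every member has at least 1 annotated transcript of a single exon, and the summed exon lengths run from 602 bases in SAUR63 to 968 bases in SAUR66. The window from 250 bases before to 50 bases after each annotated start was searched on both strands for 6 motifs. CACATG was present in 8 of 8 windows, against 12.9% of 37883 such windows over all annotated genes. The G-box CACGTG was in 0 of 8, against 6.5% of all windows. The auxin response element TGTCTC was in the windows of 3 members (SAUR62, SAUR66 and SAUR67), against 14.2% of all, and its other form TGTCGG in that of SAUR63 alone among the 8, against 5.1%. The brassinosteroid response elements CGTGTG and CGTGCG were in 0 of 8, against 6.2% and 1.8% of all windows. A match is a run of letters and does not show binding, and the neighbours arose by duplication, so their windows are not independent of each other. The windows are placed by annotated starts and need not cover matching stretches, so a motif absent from a window may lie outside it.

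One CACATG per member is printed here with 20 bases before it and 24 after it, because it is the motif that the 8 windows share and because PIF3 is over-produced in one of the lines. The motif is in capitals, each line reads 5′ to 3′ on the strand of the gene, and all 8 stretches lie before the annotated start.
SAUR61: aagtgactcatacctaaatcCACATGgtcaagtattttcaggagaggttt
SAUR62: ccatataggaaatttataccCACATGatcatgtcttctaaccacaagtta
SAUR63: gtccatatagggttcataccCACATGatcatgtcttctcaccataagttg
SAUR64: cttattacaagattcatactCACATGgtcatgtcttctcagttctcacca
SAUR65: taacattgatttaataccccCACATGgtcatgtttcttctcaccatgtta
SAUR68: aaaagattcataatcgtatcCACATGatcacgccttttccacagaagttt
SAUR66: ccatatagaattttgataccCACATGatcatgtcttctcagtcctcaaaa
SAUR67: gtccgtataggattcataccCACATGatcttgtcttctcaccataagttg
Only matches on the strand of the gene, with 20 bases before and 24 after them in the window, were considered. SAUR61 had such matches at -177, -117 and -81 bases from the annotated start. The one at -117 was printed because its surroundings were most like the SAUR63 stretch, so the likeness of SAUR61 was selected for. Of the 50 bases, the SAUR67 stretch has 47 in common with that of SAUR63 and the SAUR62 stretch 37, whereas the SAUR61 stretch has 25. The first base of these motifs lies from 193 or 194 bases (SAUR63 and SAUR68) to 36 bases (SAUR66) before the annotated start. Annotated starts need not mark matching positions: the whole windows of SAUR63 and SAUR67 were 31.9% identical, although these stretches share 47 bases. The distances therefore depend on where each start is annotated and do not show that the motif moved between members.

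**Figure D1:**
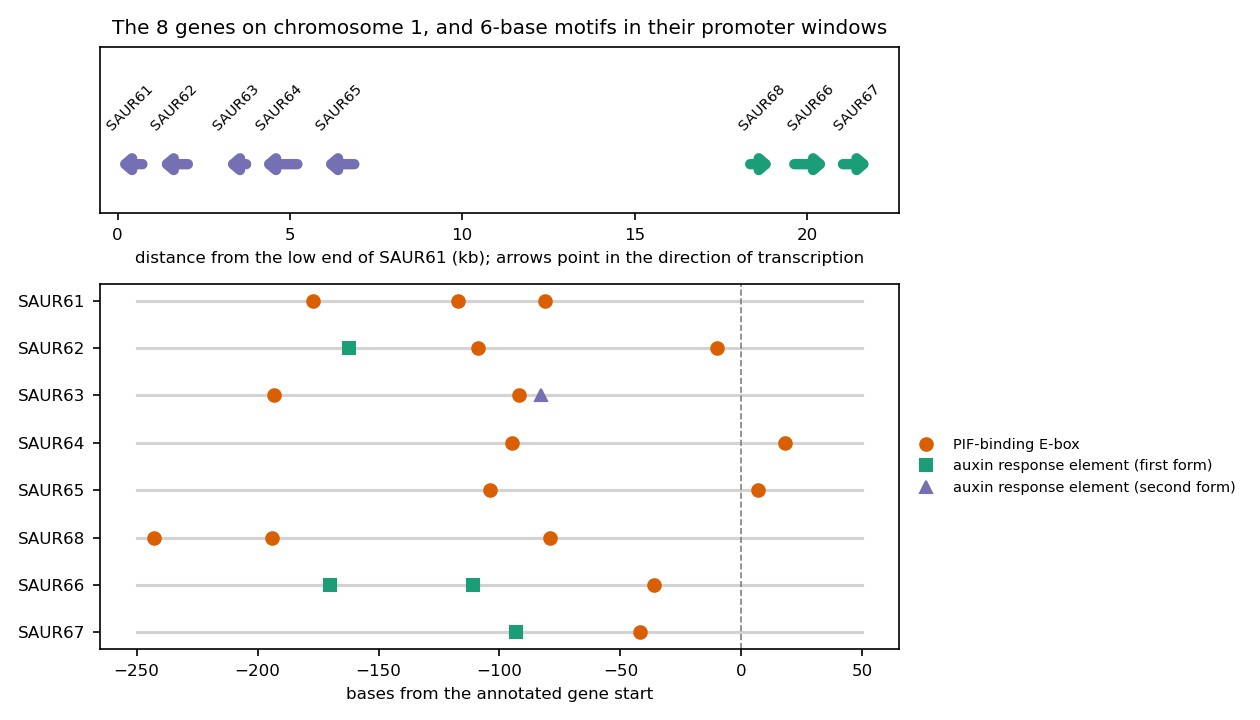
The upper panel maps the 8 genes by distance in kb from the low end of SAUR61, with arrows in the direction of transcription, and the lower panel marks 6-base motifs by distance in bases from each annotated start. A reader should see the 2 oppositely oriented blocks of 5 and 3 genes and at least 1 E-box (circles) in every window.

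Some members resemble each other closely enough to share reads. In pairwise alignment of the coding sequences, SAUR63 and SAUR67 were 89.3% identical, SAUR62 and SAUR63 89.0%, and SAUR64 and SAUR66 85.0%, and the lowest pair was SAUR65 and SAUR68 with 56.9%. The following 75 bases near the start of the coding sequence are shown for the 4 members that the fold changes below turn on, with differences from SAUR62 in capitals.
SAUR62: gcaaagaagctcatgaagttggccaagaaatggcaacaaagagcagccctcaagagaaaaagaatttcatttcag
SAUR63: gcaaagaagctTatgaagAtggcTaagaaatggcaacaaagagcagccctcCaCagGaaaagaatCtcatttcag
SAUR67: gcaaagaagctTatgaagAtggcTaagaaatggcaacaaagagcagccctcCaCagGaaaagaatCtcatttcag
SAUR64: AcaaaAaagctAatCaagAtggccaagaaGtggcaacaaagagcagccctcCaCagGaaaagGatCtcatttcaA
SAUR63 and SAUR67 have the same 75 bases, which differ from SAUR62 at 7 positions, whereas SAUR64 differs from SAUR62 at 12. A read of 50 bases cannot always be placed: 33.9% of the 50-base stretches of SAUR67 transcripts, 27.1% of those of SAUR63 and 23.2% of those of SAUR62 occur elsewhere in the genome, and 0.6% or less of those of each of the other 5. SAUR63 shares 150 such stretches with SAUR67, and SAUR62 shares 178 with SAUR75 (AT5G27780) on chromosome 5, which is named for this reason. AT1G29435, which is annotated across SAUR63 and the end of SAUR64 on the opposite strand, had 0 counts in all 12 libraries.

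Library totals ran from 21914548 to 34345371 estimated counts. PIF3 had 348.2, 350.2 and 363.1 CPM (reads of the gene relative to the library's TMM-scaled total) in the 3 PIF3 over-expression libraries, against 22.8, 26.6 and 36.9 CPM in Col-0, a log2 fold change of 3.62 (SE 0.228, edgeR adjusted p = 5.34e-06). The genotype label of these libraries says over-expression, while their titles call them a pif3 mutant. The decoy libraries stood apart from the other 9: 81 genes had 0 counts in all 3 of them and 10 or more in each of the other 9 libraries, against 0 such genes for any other genotype. Whether the decoy line has the same genetic background as the other lines, as its label says, was not tested, and every decoy value below is read with that limit. The 13 root markers summed to 5519 to 7249 CPM in decoy libraries, 3834 to 4893 in cfh1, 4043 to 5023 in PIF3 over-expression and 3692 to 4863 in Col-0, and no marker was at 0 in any library. PYK10, a beta-glucosidase of root ER bodies, made up most of each sum and was higher in the decoy line (5075 to 6757 CPM, against 2958 to 4067 in Col-0). The other 12 summed to 444.6 to 657.5 CPM in decoy libraries and 654.4 to 713.6 in PIF3 over-expression, below 733.8 to 795.7 in Col-0. In cfh1 their sum, at 619.8 to 805.2 CPM, overlapped that of Col-0. These sums rest largely on the abundant NAI2 and IRT1, and single markers differed in direction. In the decoy line NAI2 averaged 243 CPM against 409.3 in Col-0, whereas SCR averaged 46.75 against 36.37. In PIF3 over-expression IRT1 averaged 88.51 CPM against 239.6 in Col-0, whereas EXPA18 averaged 33.77 against 20.32. Of the 13 markers, 3 were higher and 4 lower in the decoy line than in Col-0, 0 higher and 1 lower in PIF3 over-expression, and none in cfh1, and their part in the results was not tested. In whole seedlings, fewer cells that express a gene cannot be told apart from less RNA per cell.

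All 8 genes were read in every library, at levels that differed more between members than between genotypes. Divided by exon length, SAUR63 and SAUR62 had the highest levels in all 4 genotypes. SAUR63 averaged 32.7 ± 6.44 CPM per kb in cfh1, 26.3 ± 1.44 in the decoy line, 18.9 ± 8.87 in PIF3 over-expression and 24.7 ± 2.51 in Col-0 (SD, n = 3 each). SAUR62 averaged 27.1 ± 6.22, 21.9 ± 0.725, 15.7 ± 5.42 and 26.4 ± 2.82 CPM per kb in cfh1, the decoy line, PIF3 over-expression and Col-0. Both share sequence with other genes, and the order between them rests on their annotated exon lengths (602 bases for SAUR63, 834 for SAUR62), so it is uncertain. Before division by length, SAUR62 had more CPM than SAUR63 in every library. Within a library, SAUR63 was above SAUR62 per kb in 3 of 3 cfh1 libraries, 3 of 3 decoy libraries and 2 of 3 PIF3 over-expression libraries, against 0 of 3 in Col-0, where replicates 1 and 3 had nearly equal levels (27.6 and 22.9 CPM per kb for SAUR63, 28.4 and 23.2 for SAUR62). SAUR67 followed with 12.9 to 15.6 CPM per kb over the 4 genotype means, then SAUR66 with 10.9 to 13.1. SAUR64 stood above SAUR65 in cfh1 (11.6 ± 1.86 against 7.94 ± 1.39), in PIF3 over-expression and in Col-0 (9.99 ± 1.27 against 6.11 ± 1.05). In the decoy line the means lay the other way round, with 6.79 ± 1.06 CPM per kb for SAUR64 and 7.93 ± 1.04 for SAUR65, a difference within their spread. SAUR61 with 1.05 to 1.48 and SAUR68 with 0.565 to 0.630 CPM per kb were lowest in every genotype.

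The summed CPM of the 8 genes describes the cluster without the problem of reads shared among its own members. It was 97.9, 90.6 and 71.2 in cfh1, 67.4, 77.5 and 72.8 in the decoy line, 38.1, 80.1 and 63.7 in PIF3 over-expression, and 82.9, 74.5 and 69.5 in Col-0. The libraries of every line overlapped those of Col-0, and the lowest of the 12 was PIF3 over-expression replicate 1. In that library 6 of the 8 members had their lowest level of all libraries, the exceptions being SAUR61 and SAUR68, which were lowest in cfh1 replicate 3, while its PIF3 level was like that of its replicates. The log2 fold change of the sum against Col-0 was 0.19 in cfh1 (95% interval -0.26 to 0.65), -0.06 in the decoy line (-0.51 to 0.39) and -0.32 in PIF3 over-expression (-0.77 to 0.13). All 3 intervals include 0. Without replicate 1 of PIF3 over-expression its value was -0.07, and without replicate 2 it was -0.57.

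**Figure D2:**
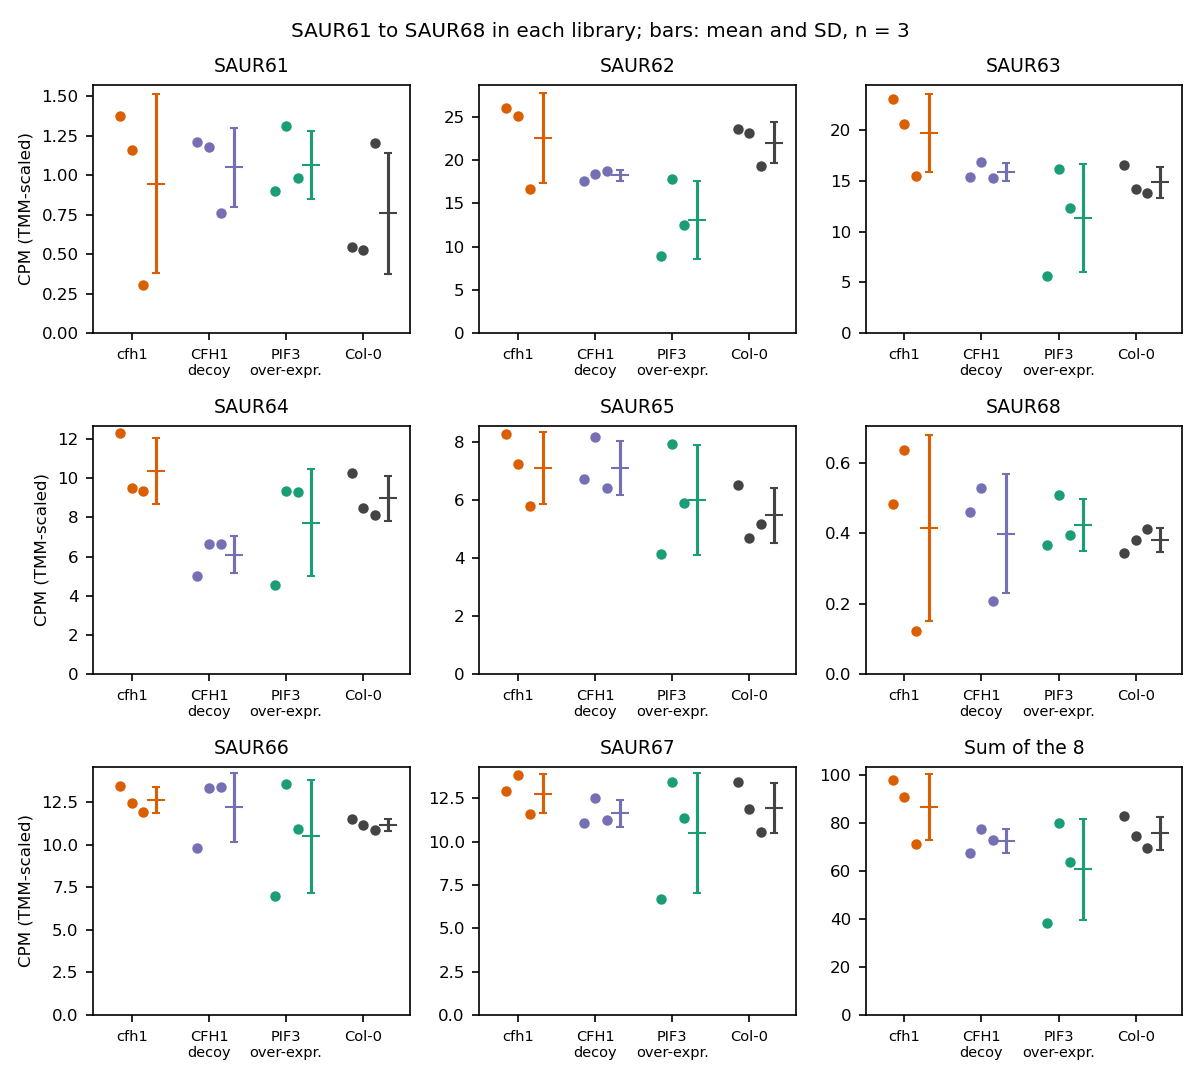
CPM of each member and of their sum in every library, by genotype, with the mean and SD of 3 libraries beside the points; each vertical axis starts at 0 and has its own range. A reader should see SAUR62 at 8.89 to 17.9 CPM in PIF3 over-expression below all Col-0 libraries, SAUR64 at 5.01 to 6.66 CPM in the decoy line below all Col-0 libraries, and overlap with Col-0 for most other pairs.

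In the cfh1 mutant no member passed the test, higher or lower, in a comparison in which 0.0706% of all tested genes passed. At an unadjusted p under 0.05 the count of members was also 0, against 4.54% of all tested genes, and DESeq2 called 0 of 8, against 0.154% of the genes it tested. The log2 fold changes of the 8 members lay between 0.03 (SAUR62) and 0.41 (SAUR63), with a median of 0.19 beside 0.00168 for all genes tested. SAUR63 had 23.1, 20.6 and 15.5 CPM in cfh1, against 16.6, 14.2 and 13.8 CPM in Col-0, a log2 fold change of 0.41 (SE 0.277, edgeR adjusted p = 0.969). Replicate 3 of cfh1 lay within the Col-0 range and the other libraries above it. SAUR66 had 13.5, 12.5 and 12.0 CPM in cfh1, against 11.5, 11.2 and 10.9 CPM in Col-0. It was the 1 member whose libraries did not overlap, as did 7.88% of tested genes in the same direction, at a log2 fold change of 0.18 (SE 0.199, edgeR adjusted p = 0.972). The intervals of the 6 more abundant members reached at most from -0.44 to 1.00 on the log2 scale, so changes larger than those bounds in either direction lay outside them, while those of SAUR61 (-0.75 to 1.39) and SAUR68 (-1.03 to 1.23) were wider.

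In the CFH1 decoy line 40.8% of all tested genes differed from Col-0, and 0 of the 8 members did. DESeq2 also called 0 of 8, where 41.4% of the genes it tested were called. At an unadjusted p under 0.05 there was 1 lower member, SAUR64, against 25.6% of tested genes lower. The log2 fold changes ran from -0.55 to 0.47 with a median of 0.08, beside -0.000891 for all genes tested. SAUR64 had 5.01, 6.64 and 6.66 CPM in the decoy line, against 10.3, 8.51 and 8.14 CPM in Col-0. Every decoy library was below every Col-0 library, and the log2 fold change was -0.55 (SE 0.245, edgeR adjusted p = 0.089). The edgeR adjusted p was 0.0464 with these 2 genotypes fitted alone and 0.0255 with library totals in place of TMM factors. Library totals moved the median of all tested genes in this comparison by -0.25. With any 1 library left out, no member was called lower. SAUR62 had 17.6, 18.4 and 18.8 CPM in the decoy line, against 23.7, 23.1 and 19.3 CPM in Col-0, also without overlap, at a log2 fold change of -0.27 (SE 0.22, edgeR adjusted p = 0.342). These 2 members are those without overlap on the lower side, where 26.8% of tested genes were. SAUR65 lay on the other side of Col-0, with 6.73, 8.16 and 6.42 CPM in the decoy line, against 6.52, 4.69 and 5.19 CPM in Col-0 (log2 fold change 0.38, SE 0.232, edgeR adjusted p = 0.206), and the groups overlapped.

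In the PIF3 over-expression line 1 of 8 members, SAUR62, was lower than in Col-0 and none was higher, where 7.32% of tested genes were lower and 6% higher. SAUR62 had 8.89, 17.9 and 12.5 CPM in PIF3 over-expression, against 23.7, 23.1 and 19.3 CPM in Col-0. All 3 libraries were below all Col-0 libraries, as for 21.2% of tested genes, and SAUR62 fell by 0.75 on the log2 scale (SE 0.221, 95% interval -1.23 to -0.28, edgeR adjusted p = 0.0397). The call was lost without any 1 of the Col-0 libraries or without PIF3 over-expression replicate 1 or 3 (adjusted p from 0.0534 to 0.155), and with library totals in place of TMM factors (0.0525). With SAUR75 added to SAUR62 before the fit the value was -0.76 (edgeR adjusted p = 0.0383). SAUR75 itself summed to 5 counts in PIF3 over-expression and 14.6 in Col-0, against 1357 and 2175 counts of SAUR62.

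The other 7 members did not pass in PIF3 over-expression, with log2 fold changes from -0.39 to 0.50. SAUR63 had 5.59, 16.1 and 12.3 CPM in PIF3 over-expression, against 16.6, 14.2 and 13.8 CPM in Col-0 (log2 fold change -0.39, SE 0.279, edgeR adjusted p = 0.401). Replicate 1 was far below the others, and replicate 2 lay within the Col-0 range. Summed with SAUR67, with which it shares the most 50-base stretches, SAUR63 had a log2 fold change of -0.30 (edgeR adjusted p = 0.456). The median over the 8 members was -0.14, beside -0.00117 for all genes tested. SAUR61, at 32 to 44 counts per library in PIF3 over-expression and 18 to 35 in Col-0, had a log2 fold change of 0.50 with an interval from -0.55 to 1.55.

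**Figure D3:**
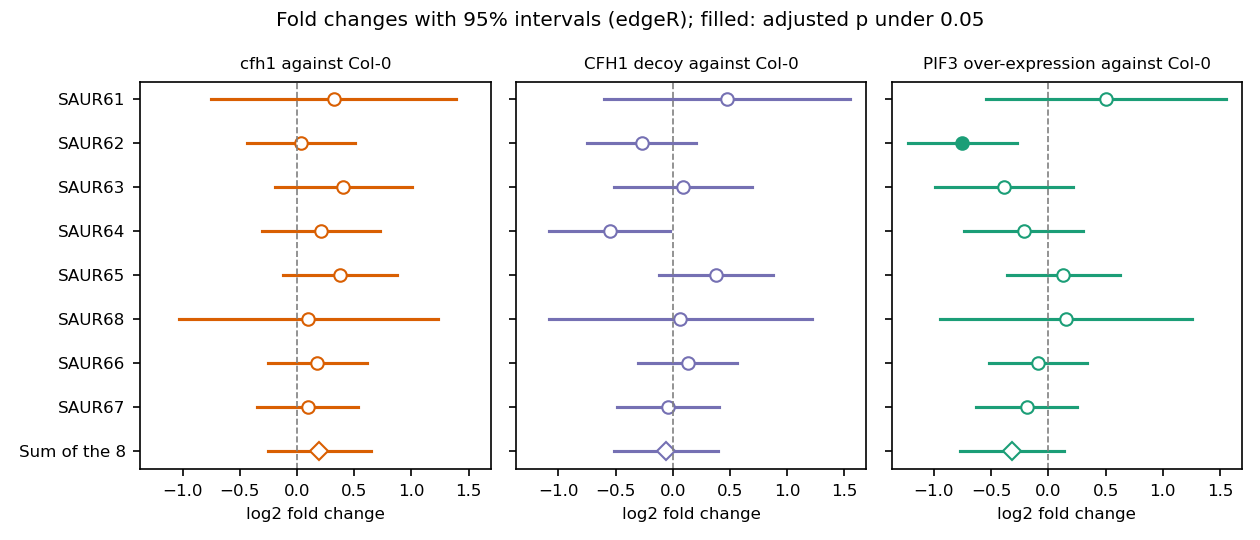
Log2 fold change of each member (circles) and of the sum (diamonds) against Col-0 in the 3 lines, with 95% intervals from the edgeR fit and filled symbols for an adjusted p under 0.05. The single filled symbol is SAUR62 in PIF3 over-expression at -0.75, the sum is drawn without a test, and the widest intervals belong to SAUR61 and SAUR68.

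Setting the lines against one another added 2 calls. SAUR64 was higher in cfh1 than in the decoy line, with 12.3, 9.50 and 9.33 CPM in cfh1 and 5.01, 6.64 and 6.66 CPM in the decoy line, a log2 fold change of 0.76 (SE 0.245, edgeR adjusted p = 0.0309). The libraries did not overlap, as for 22.8% of tested genes in that direction. It was the only 1 of 8 members called, where 33.2% of tested genes were called in either direction, and the adjusted p was 0.118 without cfh1 replicate 1 and 0.102 without decoy replicate 1. SAUR62 was higher in cfh1 than in PIF3 over-expression, with 26.0, 25.1 and 16.6 CPM in cfh1 and 8.89, 17.9 and 12.5 CPM in PIF3 over-expression, although the groups overlapped. The log2 fold change was 0.79 (SE 0.221, edgeR adjusted p = 0.0342), where 12.9% of tested genes were called in either direction. The adjusted p was 0.136, 0.127, 0.133 and 0.0961 without cfh1 replicate 1 or 2 or PIF3 over-expression replicate 1 or 3. SAUR63 had a similar value there, 0.80 (SE 0.279, edgeR adjusted p = 0.0815), and passed by DESeq2 (adjusted p = 0.0389), which called 16.1% of the genes it tested. Between the decoy line and PIF3 over-expression 0 of 8 members passed, where 43.3% of tested genes did, with SAUR62 at 0.48 (SE 0.222, edgeR adjusted p = 0.0959). At an unadjusted p under 0.05, SAUR62 alone of the 8 was higher there and none was lower, against 24.5% of tested genes higher and 26.7% lower. The sum was 0.51 higher on the log2 scale in cfh1 than in PIF3 over-expression (95% interval 0.06 to 0.97), and 0.27 without PIF3 over-expression replicate 1. It was 0.25 higher in cfh1 than in the decoy line (-0.20 to 0.71), and 0.26 higher in the decoy line than in PIF3 over-expression (-0.19 to 0.71), where it was 0.01 without PIF3 over-expression replicate 1 and 0.51 without replicate 2. These comparisons share libraries with those against Col-0, so a pair of calls on the same gene is not independent.

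By mean CPM, cfh1 came first for SAUR62 to SAUR67 and for the sum, and PIF3 over-expression last for SAUR62, SAUR63, SAUR66, SAUR67 and the sum. SAUR65 was lowest in Col-0 and SAUR64 in the decoy line, and for SAUR61 and SAUR68 all 4 means lay within 0.759 to 1.07 and 0.379 to 0.422 CPM. In the order of the 4 genotypes for each member, neighbouring genotypes overlapped in every case except Col-0 above the decoy line for SAUR62.

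The share of each member in the cluster's counts does not depend on library scaling. SAUR62 made up 23.3% to 27.7% of the cluster's counts in cfh1, 23.7% to 26.1% in the decoy line and 19.6% to 23.3% in PIF3 over-expression, against 27.8% to 31.0% in Col-0, so that all 9 libraries of the lines were below all 3 of Col-0. SAUR65 made up 8.01% to 8.45% in cfh1, 8.81% to 10.5% in the decoy line and 9.29% to 10.9% in PIF3 over-expression, against 6.30% to 7.86% in Col-0, with the libraries of every line above those of Col-0. SAUR64 made up 7.43% to 9.17% in the decoy line, below 11.4% to 12.4% in Col-0, while its shares in cfh1 and PIF3 over-expression overlapped with Col-0. SAUR63 was above Col-0 in cfh1 (21.7% to 23.6%) and the decoy line (21.0% to 22.9%, against 19.1% to 20.0% in Col-0), and SAUR66 was above it in PIF3 over-expression (17.0% to 18.3%, against 13.9% to 15.6%). In 12 of 24 comparisons of a member's share between a line and Col-0 the libraries did not overlap. The 24 comparisons are not independent, since they reuse the same 3 Col-0 libraries, and no such count was made for other genes. The exact permutation p of each of the 12, 2-sided, was 0.1, the smallest that 3 libraries against 3 allow. It was 0.2 adjusted over the 24 comparisons. No comparison could therefore pass at 0.05, and the test cannot decide whether the shares differ. Shares of 1 library add up to 100%, so a share can be lower where the level of the gene is not. In cfh1 the level of SAUR62 had a log2 fold change of 0.03, below that of each other member (0.09 to 0.41), while in the decoy line and PIF3 over-expression its level had values of -0.27 and -0.75.

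**Figure D4:**
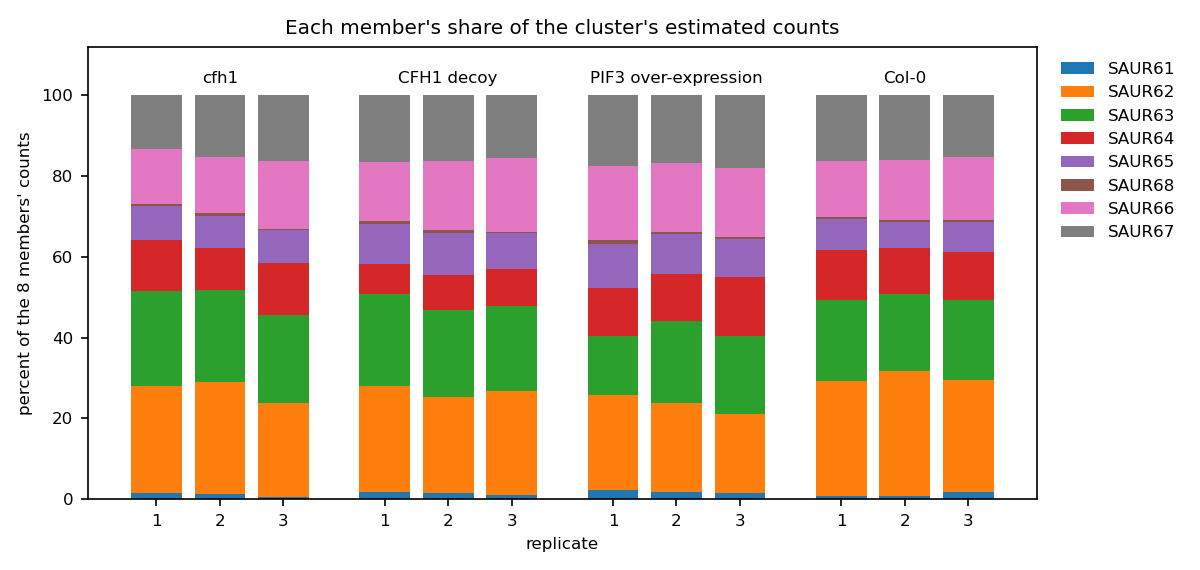
Percent of the estimated counts of the 8 members held by each, in every library, with stacked bars that add up to 100% and replicates numbered within each genotype. A reader should see the SAUR62 segment at 27.8% to 31.0% in Col-0 and lower in every other library, and the SAUR64 segment at 7.43% to 9.17% in the decoy line.

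Of the 71 other genes in the table that carry a SAUR symbol or are annotated as SAUR-like, 57 were tested. They include AT5G01830, which has the symbol SAUR21 in RefSeq but is annotated there as an ARM repeat protein. It did not pass in any line against Col-0, and without it the counts of called genes are the same among 56 tested, with medians of -0.04 in cfh1, 0.29 in the decoy line and 0.03 in PIF3 over-expression. In cfh1 none of the 57 passed by edgeR, and at an unadjusted p under 0.05 there were 1 higher and 2 lower. In the decoy line 16 were higher and 8 lower than in Col-0, with a median log2 fold change of 0.27, beside 19.6% of tested genes higher and 21.2% lower overall. In PIF3 over-expression 4 were higher and 5 lower, with a median of 0.03, beside 6% and 7.32% of tested genes. Among those that did not overlap Col-0 and averaged at least 1 on the log2 CPM scale, the 3 largest rises in the decoy line were all in the SAUR19 to SAUR24 cluster, whose members promote hypocotyl elongation and are near-identical to each other, so that their single values are uncertain. SAUR23 rose by 1.92 on the log2 scale (edgeR adjusted p = 6.79e-05), with 9.84, 8.31 and 6.73 CPM in the decoy line against 2.44, 1.97 and 2.13 CPM in Col-0. SAUR22 rose by 1.65 on that scale and SAUR21 (AT5G18030) by 1.50. Of the 6 genes of that cluster 5 were higher in the decoy line and 1, SAUR19, was lower: it had 0 counts in the 3 decoy libraries, at least 25.0-fold lower than in Col-0 at a floor of 3 counts over the group. By the same rule the 3 largest falls in the decoy line were in SAUR37 (-1.98), SAUR31 (-1.58) and SAUR8 (-1.14). In PIF3 over-expression the rule for named genes gave 1 rise, SAUR22 (0.95, edgeR adjusted p = 0.0224), and the falls of SAUR78 (30.4 ± 8.47 CPM against 60.8 ± 6.65 in Col-0), SAUR55 (log2 fold change -0.83) and SAUR6 (-0.69). No test compared the 8 members as a group with these genes, and the counts stand side by side as a description.

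**Figure D5:**
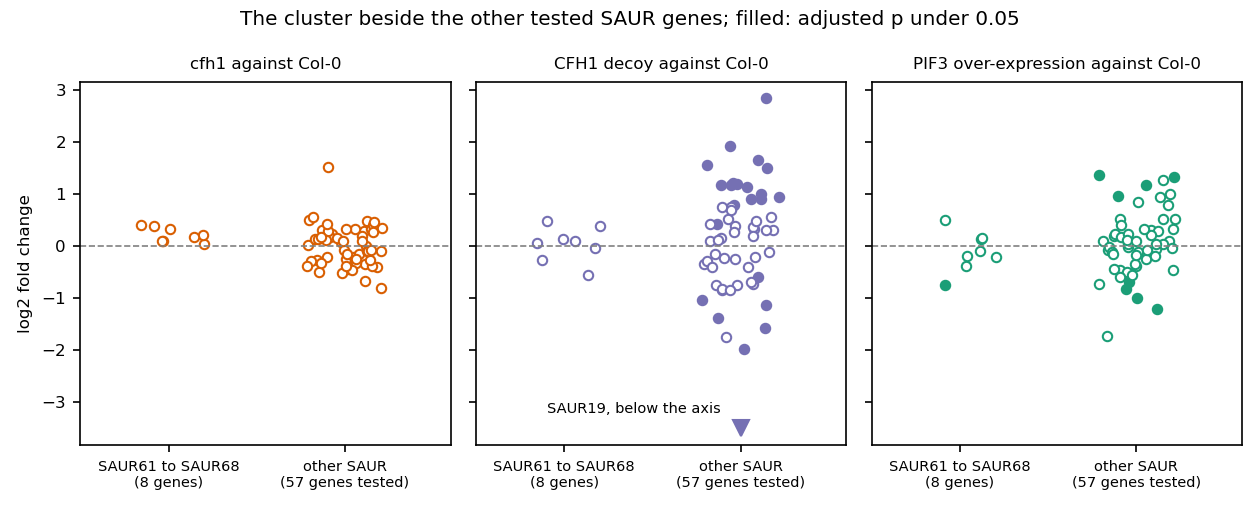
Log2 fold change against Col-0 of the 8 members and of the 57 other SAUR genes tested, in each line, with filled symbols for an adjusted p under 0.05 and points spread sideways at random for legibility. In the decoy line the 8 members lie between -0.55 and 0.47 with no filled symbol, beside 24 filled symbols among the other SAUR genes, of which SAUR19 lies below the axis and is drawn as a triangle at its edge.

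PP2C.D phosphatases, proton pumps, auxin receptors and auxin response factors were counted from short lists. The counts are to be read against the 19.6% of tested genes higher and 21.2% lower in the decoy line. In PIF3 over-expression 6% were higher and 7.32% lower. Of the 9 PP2C.D phosphatases, AT5G02760 was higher in the decoy line (log2 fold change 1.15, edgeR adjusted p = 0.000485) and AT4G33920 lower (-0.48). In PIF3 over-expression AT5G66080 was the 1 that passed, at 14.3 ± 1.04 CPM against 5.08 ± 0.304 in Col-0 (log2 fold change 1.50, edgeR adjusted p = 0.00341). Of the 11 plasma membrane proton pumps, 9 were tested and 3 were higher in the decoy line: HA1 by 0.87, HA2 by 0.78 and HA11 by 0.83 on the log2 scale, while 0 passed in PIF3 over-expression. Of the 6 auxin receptors, TIR1 (0.60) and AFB5 (0.58) were higher in the decoy line and 0 passed in PIF3 over-expression. Of the 5 activating auxin response factors, 3 were higher and 1 lower in the decoy line, among them ARF6 at 0.48, ARF8 at 0.37 and ARF19 at -0.49, and 0 passed in PIF3 over-expression. In cfh1 no gene of these 4 lists passed by edgeR, and at an unadjusted p under 0.05 there were 1 higher and 1 lower phosphatase and 1 higher proton pump. Medians over the lists in the decoy line were -0.04 for the phosphatases, 0.20 for the proton pumps, 0.29 for the receptors and 0.32 for the response factors, beside -0.000891 for all genes tested.

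Among 8 transcription factors known to bind SAUR promoters or to share their targets, HYH, a basic leucine zipper factor that acts with HY5 in light responses, was lower in the decoy line (-1.74) and in PIF3 over-expression (-1.06). HY5 was lower by less, at -0.66 in the decoy line and -0.48 in PIF3 over-expression. PIF4, a relative of PIF3 that promotes elongation, was higher in both, at 1.13 and 0.59. In all, 2 of the 8 were higher and 2 lower in each of these lines, PIF3 itself included for the over-expression line. In the decoy line that is near the share of all tested genes (19.6% higher and 21.2% lower), and in PIF3 over-expression the shares of all tested genes were 6% and 7.32%. In cfh1 0 of the 8 passed, and 0 had an unadjusted p under 0.05.

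The 17 other genes of the table with locus codes from AT1G29370 to AT1G29560 surround the cluster, and 15 were tested. In the decoy line 2 were higher and 4 lower than in Col-0, where 19.6% and 21.2% of tested genes were, and in PIF3 over-expression 2 were higher and 2 lower, beside 6% and 7.32%. AT1G29465, which has a code between those of SAUR65 and SAUR68, had 11.0, 7.66 and 6.24 CPM in the decoy line, against 5.11, 4.14 and 4.60 CPM in Col-0 (log2 fold change 0.84, edgeR adjusted p = 0.0129). AT1G29560, on the far side of SAUR67, was lower in the decoy line (-2.29, edgeR adjusted p = 9.93e-05) and in PIF3 over-expression (-1.55, edgeR adjusted p = 0.00508). In cfh1 none of the 15 passed by edgeR, and 1, AT1G29560, was lower at an unadjusted p under 0.05 (-0.96).

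The 5 genes whose pattern over the 12 libraries was most like that of the summed cluster were picked by the root mean square difference of log2 CPM, each centred on its own mean, among 18117 genes. They were AT1G45010, annotated with a lipid-sensing domain, at 0.126, RIBA3, annotated as a riboflavin biosynthesis protein, at 0.141, AT5G13770, a pentatricopeptide repeat protein, at 0.148, AT3G26630 at 0.153 and AT5G02830 at 0.154, against a median of 0.417 over all genes ranked. The measure is a description over libraries that share replicate 1 of PIF3 over-expression, where each of the 5 was also at its lowest: AT1G45010 had 6.52, 14.6 and 11.6 CPM in PIF3 over-expression, against 15.1, 14.8 and 13.8 CPM in Col-0. Of the members themselves, which are part of the sum, SAUR67 lay closest to it, at 0.109, and SAUR61 farthest, at 0.634, followed by SAUR68 at 0.529. SAUR61 and SAUR68 also had the lowest mean log2 CPM (-0.07 and -1.17), so a different pattern cannot be told apart from low depth.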

How the data were processed

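Whole-seedling mRNA of 12 libraries was analysed, 3 per genotype. The values the authors deposited are estimated counts (expected counts, fractional read numbers per gene) for 27588 locus codes, and 41.57% of them are not whole (tolerance 1e-09). TAIR10 is the build, and StringTie 2.1.2, HISAT2 2.1.0 and Trimmomatic 0.39 are the tools, that appear in the submitters' processing notes. The sources used here do not say how reads were shared between similar genes or whether strand was used, so levels of single members are uncertain where sequences are shared.

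Counts were rounded, filtered with edgeR 4.0.16 filterByExpr (minimum count 10, by genotype) in R 4.3.3, scaled with TMM factors (0.793 to 1.12) and fitted with 1 mean per genotype over all 12 libraries (quasi-likelihood, 8 residual degrees of freedom). Tests were 2-sided with Benjamini-Hochberg adjustment over 21235 genes at 0.05. Values are CPM, and errors are SD over 3 libraries or SE of the fit. For the sum, a row of summed counts took the place of the 8 rows, and no p is given. The lists without a test of their own are described by counts and medians. The procedure was tested on simulated counts. Alternatives were library totals, RLE factors, DESeq2 1.42.0, no filter, CPM of at least 1 in 3 libraries, 2 genotypes alone, no decoy libraries, a replicate block and leaving out each library. Sums of SAUR62 with SAUR75 and of SAUR63 with SAUR67 were chosen after the data were seen.

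Members and lists were chosen with earlier results of these data known. Named genes outside the cluster follow a rule: the 3 largest rises and falls among other SAUR genes per line (adjusted p under 0.05, mean log2 CPM of at least 1, no overlap with Col-0), up to 3 passing genes per list, and the 5 most similar patterns. AT1G29465 and AT1G29560 were chosen after their values were seen. Names, coordinates and sequences are from RefSeq on TAIR10.1, in which 27390 of the locus codes matched; the promoter windows were read from that genome. Coding sequences were aligned with Biopython 1.88. The count table holds no coordinates.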

Additional observations from a re-analysis of the deposited data

How the results depend on the processing

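Of the 66 main values (48 fold changes of single members, 6 of the sum, 12 counts of called members), none called changed sign. With library totals in place of TMM factors, which moved the median of all tested genes by -0.25 in the decoy line against Col-0 and by -0.34 against PIF3 over-expression, the count of called members became 1 lower (SAUR64) in both, 0 in PIF3 over-expression against Col-0 and 0 in cfh1 against PIF3 over-expression, and the sum in the decoy line against PIF3 over-expression became -0.066. With 2 genotypes alone, 1 member was lower in the decoy line against Col-0 and 0 higher in cfh1 against PIF3 over-expression, and DESeq2 called 2 there (SAUR62 and SAUR63). Leaving out 1 library at a time gave 0 to 1 lower members in PIF3 over-expression against Col-0, 0 to 1 higher in cfh1 against the decoy line, 0 to 2 higher in cfh1 against PIF3 over-expression, and 0 to 1 lower and 0 to 2 higher in the decoy line against PIF3 over-expression. The cause was not tested. The sum's value in these fits ran from -0.57 to -0.07 in PIF3 over-expression against Col-0, from 0.10 to 0.32 in cfh1 and from -0.12 to 0.01 in the decoy line, and from 0.16 to 0.38 in cfh1 against the decoy line, 0.27 to 0.77 in cfh1 against PIF3 over-expression and 0.01 to 0.51 in the decoy line against PIF3 over-expression.

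The replicate numbers are not stated to pair libraries, and correlations of same-numbered deviations ran from -0.364 to 0.271. With a replicate block, SAUR62 in PIF3 over-expression against Col-0 was -0.77 (adjusted p = 0.0384), SAUR64 in cfh1 against the decoy line 0.78 (adjusted p = 0.0463), and no call of a member changed. Depth limits SAUR61 (10 to 44 counts per library) and SAUR68 (4 to 17 counts).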
